A study of Mus musculus with 18 samples.

Results

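Transcripts of the heat shock proteins and their cochaperones were followed in mouse brain and skull after ischemic injury, as 78 of the 25918 gene names in a table of read counts. The members were taken by a pattern of gene names, which was set with earlier results of these data known. They are the HSP70 family (Hspa genes), the HSP110 gene Hsph1, the HSP90 family, the small heat shock proteins (Hspb genes), the mitochondrial chaperonin pair Hspd1 and Hspe1, the transcription factors Hsf1 and Hsf2, the BAG cochaperones Bag1 to Bag6, and the J-domain cochaperones of the Dnaja, Dnajb and Dnajc series. A pseudogene, Dnajc19-ps, matched the pattern of names and was left out. Another, Hspa9-ps1, stayed in and was at or near 0 in every library.

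Messenger RNA came from BALB/c mice in 6 groups of 3 libraries. The brain groups were cortex at day 2 after ischemic injury, cortex at day 6, and cortex of control mice. The skull groups were interparietal bone at day 2, interparietal bone at day 4, and interparietal bone of control mice, and all injured tissue included the lesioned area and its surroundings per the labels. How the injury was made, whether controls had an operation, and the age and sex of the mice are not stated in the labels, nor is it stated that each library was a separate animal, so p-values here measure the spread between these libraries, which may be technical.

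Total counts ran from 17199036 to 18476057 in brain at day 2, from 13005050 to 22236424 at day 6 and from 23673255 to 27654269 in brain controls. In skull they ran from 15113558 to 15382973 at day 2, from 13142770 to 15445503 at day 4 and from 13398631 to 14765111 in controls. Levels are given in CPM, read counts scaled to the library total after TMM normalization within a tissue. A change is given on the log2 scale with the standard error that edgeR's quasi-likelihood fit puts on it, and it is called where the Benjamini-Hochberg adjusted p over all genes tested is below 0.05. Of the 78 members, 72 passed the filter on low counts in brain and 75 in skull. Dnajb7, Hspb9 and Hspa9-ps1 passed in neither tissue, and Hspb2, Hspb7 and Dnajc5b did not pass in brain.

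Heat shock proteins bind unfolded proteins and keep them from aggregating. HSP70 chaperones work in cycles of ATP hydrolysis that J-domain proteins start and that HSP110 and BAG proteins help to end by releasing the nucleotide, while HSP90 acts later on partly folded clients. In the cytosol the inducible members are switched on by Hsf1, whereas the chaperones of the endoplasmic reticulum (ER) are induced by the unfolded protein response, and mitochondria hold a set of their own. In brain ischemia the inducible HSP70 and the small heat shock protein Hspb1 are long known as stress markers of neurons, glia and vessels.

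The labelled tissues showed their markers. The summed level of 10 neuron markers was 12291 to 15175 CPM in brain controls, and that of 7 osteoblast and osteocyte markers was 21533 to 40531 CPM in skull controls. The skull libraries also differed in muscle content. The sum of 11 skeletal muscle markers was 12.95, 287 and 1127 CPM at day 2, 1908, 119 and 90.7 CPM at day 4, and 5094, 992 and 3487 CPM in controls, with none of the 11 at 0 in a whole group. Control libraries 1 and 3 stood apart from control library 2 in these markers and in the inducible heat shock genes, so the members' skull results are also given with control library 2 as the lone control, a setting chosen after seeing the data in which that library is assumed to vary like the others. In bulk tissue, fewer cells of a type and less RNA per cell cannot be told apart.

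In brain at day 2, 22 of the 72 tested members changed, 14 higher and 8 lower, which is 30.6% of the members against 24.7% of all 18151 genes tested. Higher calls made up 14.7% and lower calls 9.99% of all genes. The libraries of day 2 and control did not overlap for 40 members, or 55.6%, against 39% of all genes. At day 6 against control, 4 members changed, 3 higher and 1 lower, against 10.3% of all genes with 7.93% higher and 2.39% lower, and 29 members did not overlap, against 30.9% of all genes. At day 6 against day 2, 14 members changed, 1 higher and 13 lower, against 11.6% of all genes with 5.3% higher and 6.26% lower, and 27 members did not overlap, against 30.5% of all genes. The median change of the members was -0.08 at day 2, beside 0.00035 for all genes. Without control library 3 the count at day 2 was 13, against 16.9% of all genes. At day 6 it was 1 without day 6 library 3 (6.05% of all genes called) and 7 without day 6 library 1 (11.2%). It was 10 and 8 without day 2 libraries 1 and 2 (11.5% and 11.8%). It reached 0 without day 6 library 2 or without control library 2 or 3, where 5.41%, 6.22% and 6.12% of all genes were called. There 14, 15 and 15 members had an unadjusted p under 0.05 in edgeR. DESeq2 on all libraries called 10 at day 6, against 13.3% of all genes. The count between the days was 9 without day 6 library 3, against 4.86% of all genes.

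In skull at day 2, 32 of the 75 tested members changed, 20 higher and 12 lower, which is 42.7% of the members against 34.4% of all 17450 genes, with 17.8% higher and 16.6% lower. The libraries of day 2 and control did not overlap for 42 members, or 56%, against 47.7% of all genes. At day 4, 12 members changed, 1 higher and 11 lower, against 10.6% of all genes with 5.83% higher and 4.79% lower, and 29 members did not overlap, against 31.1% of all genes. At day 4 against day 2, 24 members changed, 4 higher and 20 lower, against 21.6% of all genes with 10.6% higher and 11.1% lower, and 42 members did not overlap, against 42.6% of all genes. The median change of the members was 0.03 at day 2 and -0.17 at day 4, beside -0.01 and 0.02 for all genes. With control library 2 alone, fewer members and also fewer of all genes were called at both days. The count at day 2 was 21 without day 2 library 3 and 20 without control library 3, where 26.2% and 22.6% of all genes were called. At day 4 it was 3 without day 4 library 2 and 2 without day 4 library 3, against 3.27% and 1.31% of all genes. Without control library 3 it was 0 at day 4, where only 10 of 17825 genes (0.0561%) were called. There 24 members had an unadjusted p under 0.05 in edgeR. DESeq2 on all libraries called 20 at day 4, against 16.3% of all genes.

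**Figure D1:**
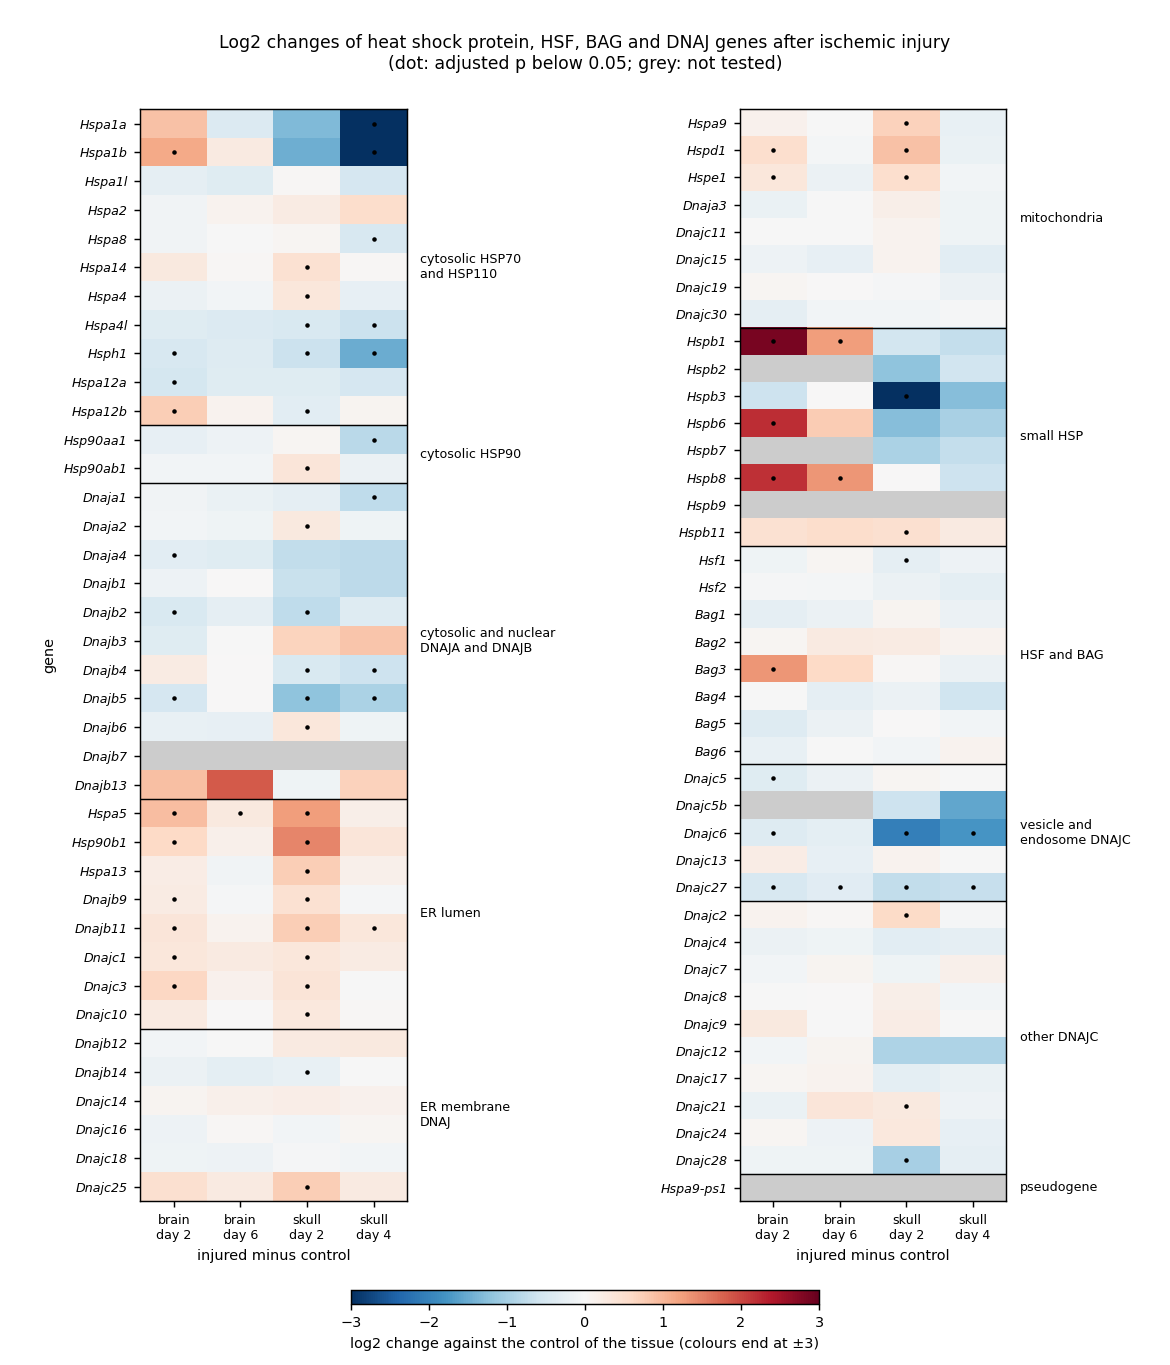
Log2 changes against the control of the same tissue for all 78 members, in rows grouped by role, with columns for brain at days 2 and 6 and skull at days 2 and 4. Red is higher and blue lower than control, dots mark an adjusted p below 0.05, and grey cells were not tested; the ER lumen block is red at day 2 in both tissues, and Hspb1, Hspb6 and Hspb8 are red in brain at day 2 and pale or blue in skull.

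The chaperones of the ER lumen rose at day 2 in both tissues. Of 8 members, 6 were called higher in brain and 8 in skull, with median log2 changes of 0.36 and 0.60, and none was lower. Of all genes, 14.7% were called higher in brain and 17.8% in skull. Hspa5, the HSP70 of the ER known as BiP (chromosome 2, 34771970 to 34777547 on mm10), had 515, 524 and 474 CPM in brain at day 2, 305, 341 and 322 CPM at day 6, and 262, 267 and 261 CPM in brain controls. The 3 groups did not overlap. The change was 0.94 ± 0.09 at day 2 (adjusted p = 7.11e-06) and 0.29 ± 0.09 at day 6 (adjusted p = 0.0435), and day 6 was lower than day 2 by -0.64 ± 0.09 (adjusted p = 5.63e-04). The call at day 6 was lost without day 6 library 2 or 3, day 2 library 3 or any 1 control (0.25 to 0.32, adjusted p from 0.0584 to 0.187).

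In skull, Hspa5 had 1573, 1463 and 1755 CPM at day 2, 706, 877 and 681 CPM at day 4, and 658, 690 and 648 CPM in controls. Every day 2 library was above all others, and day 4 overlapped the controls. The change was 1.26 ± 0.11 at day 2 (adjusted p = 1.26e-04) and 0.18 ± 0.11 at day 4 (adjusted p = 0.329), with -1.08 ± 0.11 between day 4 and day 2 (adjusted p = 4.13e-04).

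Hsp90b1, the HSP90 of the ER known as GRP94 (chromosome 10, 86690209 to 86705509), had 950, 960 and 1159 CPM in skull at day 2, 464, 534 and 430 CPM at day 4, and 407, 338 and 363 CPM in controls. It was 2.77-fold higher at day 2 (1.47 ± 0.12, adjusted p = 7.82e-05), and at day 4 the libraries lay above the controls without passing the test (0.37 ± 0.12, adjusted p = 0.0758). In brain it had 319, 302 and 310 CPM at day 2, 213, 242 and 229 CPM at day 6, and 209, 199 and 209 CPM in controls. The day 2 change in brain was 0.59 ± 0.08 (adjusted p = 1.89e-04), and every day 2 library was above every control.

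In skull at day 2, Dnajb11, a J-domain partner of BiP also called ERdj3, reached 168 ± 3.58 CPM against 100 ± 1.31 CPM in controls (SD, n = 3 each; 0.74 ± 0.07, adjusted p = 1.82e-04), and Hspa13, an HSP70-like ATPase of microsomes, reached 105 ± 10.2 CPM against 63.6 ± 4.996 CPM (0.73 ± 0.12, adjusted p = 0.00145). Dnajb11 alone of the 8 was still called at day 4, at 0.34 ± 0.07 (adjusted p = 0.0223). Without day 4 library 2 or 3 or control library 3 it was not (0.29 to 0.35, adjusted p from 0.0726 to 0.0918), nor against control library 2 alone (0.33, adjusted p = 0.145). Dnajc3, which restrains the stress kinase of the unfolded protein response, was at 94.7 ± 0.36 CPM in brain at day 2 against 61.1 ± 3.80 CPM in controls (0.63 ± 0.08, adjusted p = 1.19e-04), and changed by 0.40 ± 0.08 in skull at day 2 (adjusted p = 0.00561). Dnajb9 and Dnajc1, also J-domain proteins of the ER, rose in both tissues by 0.25 to 0.47. Dnajc10, an ER disulfide reductase, was called in skull alone (0.32 ± 0.09, adjusted p = 0.0234), and the difference between the tissues was not called for it.

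Summed over the 8 genes, the ER lumen members had 1295, 1282 and 1252 CPM in brain at day 2, against 827, 828 and 837 CPM in controls. In skull the sums were 3422, 3268 and 3812 CPM at day 2, 1833, 2165 and 1746 CPM at day 4, and 1698, 1689 and 1621 CPM in controls. The groups at day 2 and control did not overlap in either tissue. With control library 2 alone, 4 of the 8 were called in skull at day 2, namely Hspa5 (1.21, adjusted p = 0.00567), Hsp90b1 (1.60, adjusted p = 0.00191), Dnajb11 (0.76, adjusted p = 0.00531) and Hspa13 (0.71, adjusted p = 0.0258), with a median of 0.57.

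Cell markers moved beside these genes. Osteoblast and osteocyte markers, cells that secrete much collagen, summed to 43808, 39679 and 33772 CPM in skull at day 2 and 40531, 21533 and 33681 CPM in controls, with 2 of 7 called higher and 1 lower. B lineage and plasma cell markers summed to 172 to 219 CPM at day 2 against 151 to 170.2 CPM, with 1 of 9 higher and 7 lower, and none was at 0 in either group. Cycling cell markers summed to 786 to 953 CPM in skull at day 2 against 317 to 424 CPM in controls, and to 249 to 307 CPM in brain at day 2 against 54.0 to 59.4 CPM, with 7 of 7 higher in each. Erythroid markers summed to 10303, 6219 and 1588 CPM in skull at day 2 against 14496 to 19373 CPM in controls, with 2 of 6 lower, and neutrophil markers to 2277 to 2464 CPM against 1134 to 2027 CPM, with 0 of 8 called by edgeR. In brain, monocyte and macrophage markers summed to 276 to 431 CPM at day 2 against 27.2 to 34.8 CPM. Their part in the rise was not tested.

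Because this group moved together, the 250 bases before the RefSeq gene starts were searched on both strands for the ER stress element, which factors of the unfolded protein response bind. It is written as CCAAT, then 9 bases of any kind, then CCACG. RefSeq promoters on GRCm38.p6 were at hand for 62 of the 78 members, and 3 of these held the element, against 0.130% of 27025 genes (35 genes). The 3 were Hspa5, Hsp90b1 and Dnajc3, all of the ER lumen. The other ER lumen members, Dnajb11, Hspa13, Dnajb9, Dnajc1 and Dnajc10, had no match or no promoter at hand. The gene spans printed here are those of GENCODE, whose starts can differ from the RefSeq ones. The stretch of Hspa5 lies inside its GENCODE span, while GENCODE starts Dnajc3 at 118937976, past the end of its stretch. Bases shortly after the RefSeq start were in no GENCODE transcript of Dnajc3. Such a match describes the sequence and is no proof of binding. The element was picked because these genes rose, so its count beside the share of all genes is no test. The sequences are shown 5′ to 3′ on the strand of the gene, with the matched letters in capitals, as chr2:34772020-34772049 (+) for Hspa5, chr10:86705510-86705694 (-) for Hsp90b1, which holds 2 matches in opposite orientation, and chr14:118937682-118937931 (+) for Dnajc3.
Hspa5: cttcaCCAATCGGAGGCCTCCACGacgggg
Hsp90b1: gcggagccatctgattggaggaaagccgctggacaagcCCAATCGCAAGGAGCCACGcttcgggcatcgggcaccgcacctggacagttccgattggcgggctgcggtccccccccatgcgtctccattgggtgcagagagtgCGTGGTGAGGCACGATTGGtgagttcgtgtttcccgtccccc
Dnajc3: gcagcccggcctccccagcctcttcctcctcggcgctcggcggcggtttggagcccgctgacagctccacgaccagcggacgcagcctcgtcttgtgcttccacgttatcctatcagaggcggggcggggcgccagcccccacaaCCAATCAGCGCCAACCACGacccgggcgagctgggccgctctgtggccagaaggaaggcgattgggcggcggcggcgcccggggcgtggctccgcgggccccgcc

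**Figure D2:**
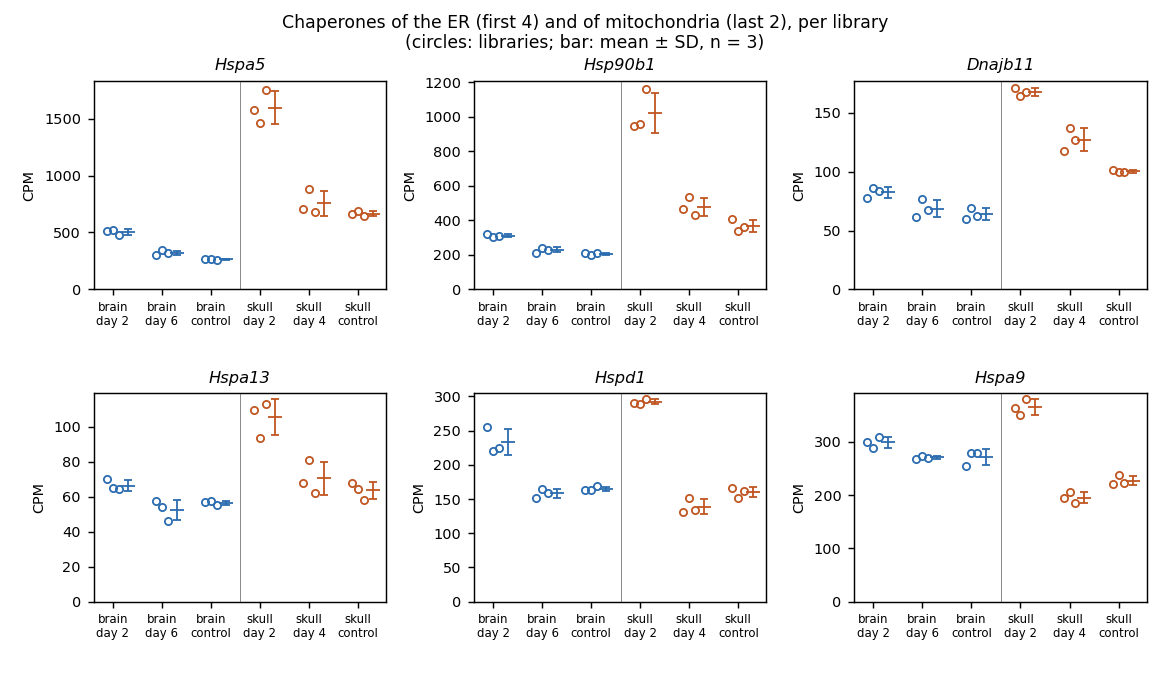
CPM per library of 4 chaperones of the ER lumen (Hspa5, Hsp90b1, Dnajb11, Hspa13) and 2 of mitochondria (Hspd1, Hspa9) in the 6 groups, brain in blue and skull in orange, with the mean ± SD of 3 libraries beside the circles. In skull every day 2 library lies above every control and every day 4 library for all 6 genes, with Hspa5 at 1463 to 1755 CPM at day 2 against 648 to 690 CPM in controls.

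The mitochondrial chaperonin followed the same course. Of 8 mitochondrial members, 2 rose in brain and 3 in skull at day 2. Of all genes, 24.7% and 34.4% were called there, 14.7% and 17.8% higher. None of the 8 fell at day 2, and none was called at day 6 or day 4 against control. Hspd1, the HSP60 ring that folds imported proteins (chromosome 1, 55077835 to 55088243), had 291, 289 and 296 CPM in skull at day 2, 130.5, 151 and 134 CPM at day 4, and 167, 152 and 162 CPM in controls. Every day 2 library was above every other skull library. The change was 0.87 ± 0.08 at day 2 (adjusted p = 1.26e-04) and -1.08 ± 0.08 between day 4 and day 2 (adjusted p = 8.98e-05).

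In brain, Hspd1 had 256, 220 and 225 CPM at day 2, 152, 165 and 158 CPM at day 6, and 163, 163 and 169 CPM in controls. Day 2 stood above both other groups, which overlapped each other. The day 2 change was 0.50 ± 0.09 (adjusted p = 8.81e-04). Hspe1, the HSP10 lid of the same ring, lies head to head with Hspd1 on the opposite strand (55088132 to 55091307). Their exons share 112 bases, and without a known strand setting the reads there cannot be told apart. Hspe1 rose by 0.34 ± 0.10 in brain (adjusted p = 0.0220) and by 0.49 ± 0.12 in skull at day 2 (adjusted p = 0.0129). The call of Hspe1 in brain was lost without day 2 library 1 or control library 2 or 3 (0.29 to 0.36, adjusted p from 0.0558 to 0.102).

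Hspa9, the HSP70 that pulls proteins into mitochondria, had 364, 350 and 381 CPM in skull at day 2, 194, 206 and 185 CPM at day 4, and 221, 237 and 223 CPM in controls. It rose by 0.68 ± 0.07 at day 2 (adjusted p = 2.69e-04), and the day 4 libraries all lay below the controls without passing the test (-0.22 ± 0.07, adjusted p = 0.0885). In brain it had 299, 289 and 309 CPM at day 2 against 254.8, 279.5 and 279.6 CPM in controls, groups that did not overlap and whose difference did not pass the test (0.14 ± 0.08, adjusted p = 0.249). With control library 2 alone, Hspd1, Hspe1 and Hspa9 were called in skull at day 2 at 0.94, 0.75 and 0.62. The J-domain members Dnaja3, Dnajc11, Dnajc15, Dnajc19 and Dnajc30 were not called in either tissue at any time against control.

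The heat shock element bound by Hsf1 was searched in the same 250 bases on both strands as the 3 alternating units TTC, GAA and TTC with 2 bases of any kind between neighbours. It was in 0.514% of 27025 genes (139 genes) and in 3 of the 62 members, Dnajb6, Hspd1 and Hspe1. Hspa1a and Hspa1b were searched too and held no match to this exact spelling. That does not show that they lack heat shock elements of another spelling or position. Hspd1 and Hspe1 share their upstream region and hold 2 overlapping matches there, at chr1:55088053-55088082, which lies inside the GENCODE span of Hspd1, shown because the pair moved together and read on the minus strand, which is that of Hspd1.
Hspd1 and Hspe1: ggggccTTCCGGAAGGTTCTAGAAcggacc

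Some small heat shock proteins rose in brain. Proteins of this family hold unfolding proteins in a state from which HSP70 can refold them, and Hspb8 works with Bag3 to send aggregates to autophagy. Of 5 tested in brain, 3 were called at day 2 (Hspb1, Hspb6 and Hspb8), with a median change of 2.20 over the 5, and 2 of them at day 6. Of all genes, 14.7% were called higher at day 2 and 7.93% at day 6. At day 2, 4 of the 5 had a positive sign, and the lowest change, -0.63, was not called. Hspb1 (chromosome 5, 135887919 to 135889563) had 5.54, 13.2 and 8.95 CPM at day 2, 2.73, 3.43 and 3.07 CPM at day 6, and 1.63, 1.41 and 0.79 CPM in controls. All libraries of day 2 were above those of day 6, and all of day 6 above the controls. It was 7.19-fold higher at day 2 (2.85 ± 0.35, adjusted p = 6.77e-05) and 2.40-fold at day 6 (1.26 ± 0.35, adjusted p = 0.0353; limma voom gave an adjusted p of 0.118 there). At day 6 the call of Hspb1 was also lost without day 6 library 2 or 3 or control library 2 or 3 (1.01 to 1.34, adjusted p from 0.0846 to 0.133).

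Hspb6, a small heat shock protein of muscle and vessels, had 9.14, 16.5 and 16.1 CPM in brain at day 2, 4.84, 4.85 and 5.82 CPM at day 6, and 2.97, 3.46 and 2.58 CPM in controls. The 3 groups did not overlap. The change was 2.21 ± 0.25 at day 2 (adjusted p = 3.43e-05), while 0.77 at day 6 was not called. Hspb8 (chromosome 5, 116408491 to 116422864) had 19.4, 27.1 and 23.6 CPM at day 2, 10.6, 15.3 and 12.4 CPM at day 6, and 8.50, 3.31 and 3.46 CPM in controls, where library 1 was the highest. It rose by 2.20 ± 0.33 at day 2 (adjusted p = 7.53e-04) and by 1.33 ± 0.33 at day 6 (adjusted p = 0.0271). The call of Hspb8 at day 6 was lost without the same libraries (1.10 to 1.35, adjusted p from 0.0767 to 0.114).

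Bag3, the BAG partner of Hspb8 (chromosome 7, 128523616 to 128546981), moved with it. It had 15.3, 25.5 and 21.8 CPM in brain at day 2, 10.1, 13.9 and 13.9 CPM at day 6, and 7.67, 10.04 and 7.33 CPM in controls. Every day 2 library was above the other groups. It was 2.50-fold higher at day 2 (1.32 ± 0.21, adjusted p = 4.38e-04) and at day 6 stayed above the controls without a call (0.59 ± 0.21, adjusted p = 0.0953), which it gained without day 6 library 1 (0.73, adjusted p = 0.0474). Day 2 library 1 was the lowest of its group for Hspb1, Hspb6, Hspb8 and Bag3.

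Beside these genes, markers of vessels, glia and immune cells differed in brain. Monocyte and macrophage markers summed to 276 to 431 CPM at day 2 against 27.2 to 34.8 CPM in controls, with 6 of 7 higher and a median of 2.83. Microglia markers summed to 422 to 491 CPM against 262 to 303 CPM, with 3 of 7 higher and 2 lower. Endothelial markers summed to 228 to 388 CPM at day 2 against 139 to 154 CPM in controls, with 6 of 7 higher. Astrocyte markers summed to 6757 to 7450 CPM against 4849 to 5693 CPM, with 4 of 7 higher and 1 lower. Mural and smooth muscle markers summed to 218 to 304 CPM against 184 to 218 CPM, with 0 of 6 called by edgeR in either direction. Their part in the rise of Hspb1, Hspb6, Hspb8 and Bag3 was not tested. Skeletal muscle markers were at 8.81 to 12.2 CPM in brain at day 2 and 12.2 to 22.7 CPM in controls.

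In skull none of these 4 genes rose. Hspb1 had 9.49, 15.0 and 11.3 CPM at day 2, 16.2, 7.91 and 7.79 CPM at day 4, and 20.6, 14.7 and 17.1 CPM in controls, with overlap at both days (-0.55 ± 0.30, adjusted p = 0.181, and -0.71 ± 0.30, adjusted p = 0.160). Bag3 had 59.5, 64.2 and 65.4 CPM at day 2 and 73.7, 48.9 and 63.0 CPM in controls (0.03 ± 0.13, adjusted p = 0.889). Hspb6 had 6.24, 13.6 and 15.6 CPM at day 2 and 32.9, 22.6 and 30.5 CPM in controls, without overlap and without a call (-1.28 ± 0.67, adjusted p = 0.182). Hspb8 had 44.5, 58.9 and 51.9 CPM at day 2 and 59.4, 46.3 and 48.0 CPM in controls (0.01, adjusted p = 0.964). Day 4 library 1, the one of its group with 1908 CPM of muscle markers, was the highest of the 3 for Hspb1, Hspb6, Hspb7 and Hspb8; without it, Hspb1 (-1.15, adjusted p = 0.0244) and Hspb8 (-0.91, adjusted p = 0.0171) were called lower at day 4. Hspb7, a small heat shock protein of heart and skeletal muscle, had 51.6, 5.19 and 5.77 CPM at day 4, against 47.9, 19.3 and 36.1 CPM in controls, with day 4 library 1 above all others. Hspb3, also of muscle, fell by 3.42 ± 1.17 at day 2 (adjusted p = 0.0491) at levels of 0.13 CPM against 1.51 CPM, and was not called with control library 2 alone (adjusted p = 0.231) or with any 1 library of these groups left out (-3.11 to -4.33, adjusted p from 0.0661 to 0.139). Hspb11, also known as IFT25, a part of the ciliary transport complex, was called higher in skull at day 2 (0.47 ± 0.13, adjusted p = 0.0189), but not against control library 2 alone (0.39, adjusted p = 0.182).

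**Figure D3:**
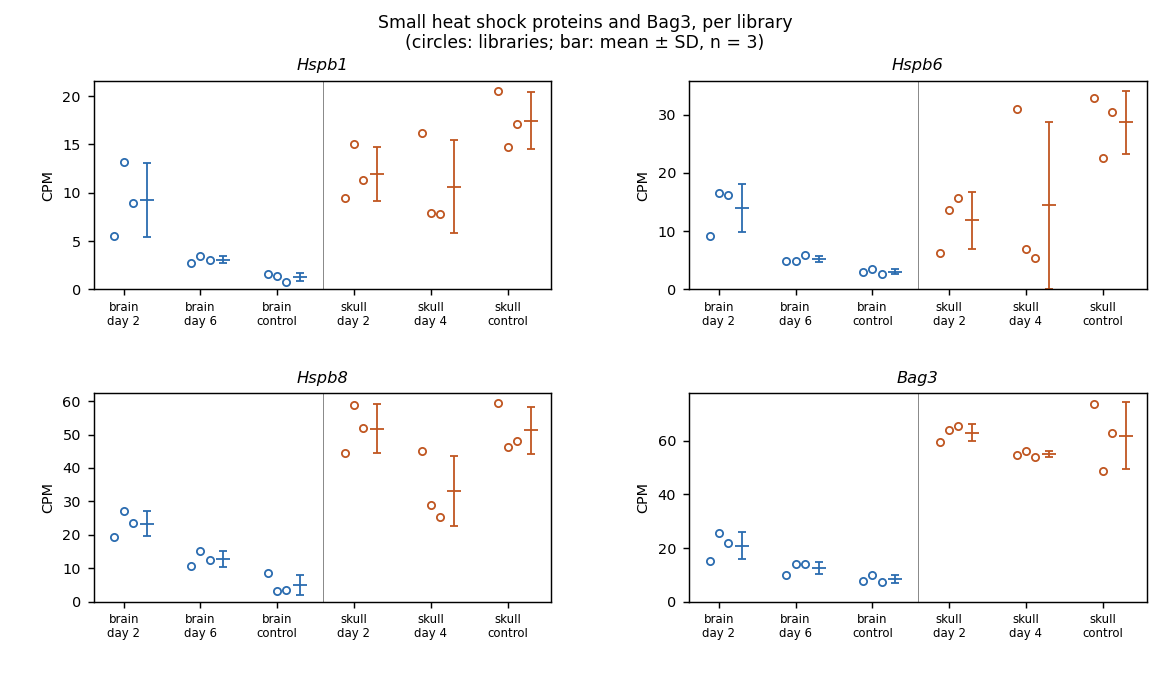
CPM per library of Hspb1, Hspb6, Hspb8 and Bag3 in the 6 groups, brain in blue and skull in orange, with the mean ± SD of 3 libraries beside the circles. In brain all 3 libraries of day 2 lie above the controls for each gene, such as 5.54 to 13.2 CPM against 0.79 to 1.63 CPM for Hspb1, while in skull none of the 4 is called higher and the libraries of day 2 and control overlap for Hspb1, Hspb8 and Bag3.

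Of the inducible HSP70 genes, Hspa1b rose in brain at day 2, and both were called lower in skull at day 4 in the main fit, though not in many other settings. Hspa1a and Hspa1b lie side by side on chromosome 17, at 34969190 to 34972156 and 34956436 to 34959238. Their coding sequences are 99.6% identical (1915 of 1923 aligned bases), so the split of reads between them is uncertain and their sum is given with them. In brain the sum was 11.6, 15.4 and 11.3 CPM at day 2, 6.2, 6.5 and 6.1 CPM at day 6, and 7.5, 5.5 and 5.8 CPM in controls. Day 2 stood above both other groups, which overlapped.

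Hspa1b had 7.31, 8.87 and 7.22 CPM in brain at day 2, 4.58, 4.30 and 3.88 CPM at day 6, and 3.69, 3.57 and 3.41 CPM in controls. It was 2.19-fold higher at day 2 (1.13 ± 0.20, adjusted p = 0.00113) and fell by 0.87 on the log2 scale at day 6 against day 2 (adjusted p = 0.0153), a call lost without day 6 library 3 or day 2 library 2 (-0.81 and -0.76, adjusted p = 0.0707 and 0.0554). Hspa1a had 4.32, 6.56 and 4.10 CPM at day 2 against 3.85, 1.90 and 2.37 CPM in controls, where library 1 was high, and did not pass the test (0.89 ± 0.32, adjusted p = 0.0558); DESeq2 and limma voom called it at 0.0415 and 0.0380. Without control library 1, Hspa1a was called (1.24, adjusted p = 0.0139).

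In skull the sum of both genes was 16.1, 26.0 and 19.5 CPM at day 2, 5.8, 5.2 and 4.6 CPM at day 4, and 90.5, 11.1 and 63.6 CPM in controls. Control libraries 1 and 3 were above every other library, and control library 2 was below every day 2 library and above every day 4 library. At day 4 both genes were called lower, Hspa1a by -3.20 ± 0.69 (adjusted p = 0.0287) and Hspa1b by -3.49 ± 0.70 (adjusted p = 0.0258). Against control library 2 alone these were -0.84 (adjusted p = 0.217) and -1.24 (adjusted p = 0.0470). Leaving out any 1 day 4 library or control library 1 or 3 also cost both calls (Hspa1a -2.61 to -3.29, Hspa1b -2.95 to -3.57, adjusted p from 0.0503 to 0.119). Over all 17 other settings, 9 did not call Hspa1a at day 4 and 7 did not call Hspa1b. At day 2 the changes of -1.32 ± 0.62 and -1.47 ± 0.63 were not called (adjusted p = 0.136 and 0.109), and against control library 2 alone they turned to 1.06 and 0.81, also not called (adjusted p = 0.0850 and 0.0971). Without control library 2 they were called lower (-1.81 and -1.94, adjusted p = 3.17e-04 and 1.10e-04).

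Hsph1, an HSP110 that releases nucleotide from HSP70 (chromosome 5, 149614287 to 149636376), had 102, 113 and 123 CPM in skull at day 2, 69.5, 59.8 and 58.1 CPM at day 4, and 223, 122 and 183 CPM in controls. Control libraries 1 and 3 were again the highest. It fell by 0.65 on the log2 scale at day 2 (SE 0.19, adjusted p = 0.0279), a call lost against control library 2 alone (-0.12, adjusted p = 0.598) and without day 2 library 1 or 2 or control library 1 or 3 (-0.45 to -0.64, adjusted p from 0.0704 to 0.0907). At day 4 it fell by 1.49 (SE 0.19, adjusted p = 0.00850) and by 0.99 against control library 2 alone (adjusted p = 0.0126), and the call was lost without control library 3 (-1.47, adjusted p = 0.0542). In brain it had 324, 246 and 312 CPM at day 2 against 347, 445 and 434 CPM in controls, which did not overlap (-0.48 ± 0.12, adjusted p = 0.0106), where Hspa1b was higher. Without brain control library 2 this call was lost (-0.41, adjusted p = 0.0586).

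Dnajb1, the main J-domain partner of inducible HSP70, had 39.4, 39.7 and 40.1 CPM in skull at day 2, 32.1, 40.8 and 36.5 CPM at day 4, and 84.2, 37.6 and 66.8 CPM in controls. Only control libraries 1 and 3 stood out among the 9, and neither day was called (adjusted p = 0.0684 and 0.0784). Without control library 2 both were called lower (-0.92, adjusted p = 2.70e-04, and -1.07, adjusted p = 4.74e-04). In brain Dnajb1 was not called either (-0.16 ± 0.11 at day 2, adjusted p = 0.368). Dnaja1, another HSP70 partner, had 106, 110 and 104 CPM in skull at day 4 against 229, 135 and 177 CPM in controls and was called lower (-0.76 ± 0.16, adjusted p = 0.0209), but not against control library 2 alone (-0.36, adjusted p = 0.0923), nor without day 4 library 2 or 3 or control library 3 (-0.73 to -0.78, adjusted p from 0.0642 to 0.0889). The skeletal muscle markers were highest in the same control libraries, at 5094 and 3487 CPM against 992 CPM in control library 2, and their part in these levels was not tested. Immediate early gene markers summed to 303 to 373 CPM at day 2 and to 650.2, 250.5 and 185 CPM in day 4 libraries 1, 2 and 3, against 548, 376 and 487 CPM in control libraries 1, 2 and 3.

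**Figure D4:**
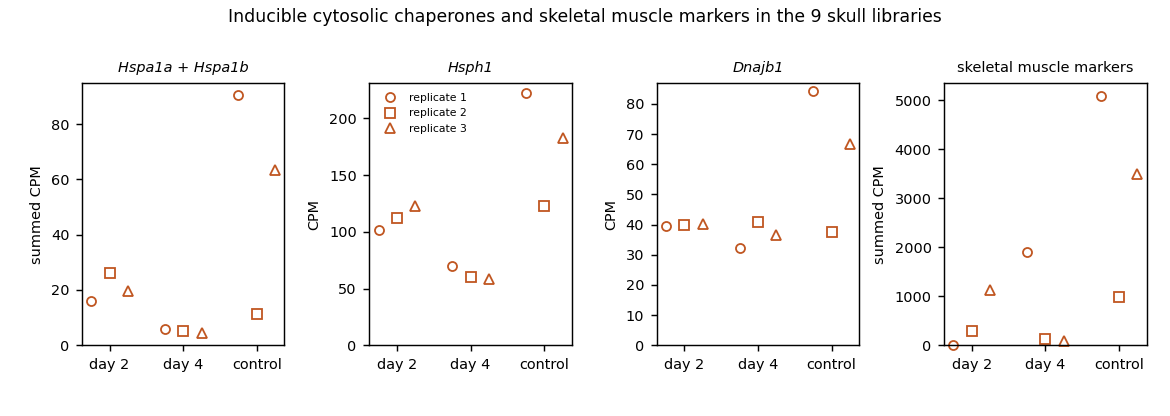
Summed CPM of Hspa1a and Hspa1b, CPM of Hsph1 and Dnajb1, and summed CPM of 11 skeletal muscle markers in the 9 skull libraries, with replicate 1 as circles, 2 as squares and 3 as triangles. In all 4 panels control replicates 1 and 3 are the 2 highest libraries, with 90.5 and 63.6 CPM of Hspa1a and Hspa1b against 11.1 CPM in control replicate 2.

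None of the HSP90, HSC70 and remaining HSP110 genes of the cytosol was called in brain at day 2. Hsp90ab1, the constitutive HSP90, had 1665, 1557 and 1492 CPM in brain at day 2 against 1680.5, 1653 and 1649 CPM in controls, with overlap and no call (-0.08 ± 0.09, adjusted p = 0.565). Hsp90aa1, its inducible counterpart, had 948, 707 and 778 CPM at day 2 against 943, 957 and 1006 CPM in controls, with overlap and no call (-0.26 ± 0.11, adjusted p = 0.102). Without day 2 library 1 it was called lower (-0.39, adjusted p = 0.00796). Hspa8, the constitutive HSP70 known as HSC70, did not pass either (-0.12 ± 0.10, adjusted p = 0.443), nor did the HSP110 genes Hspa4 (-0.17 ± 0.10, adjusted p = 0.235) and Hspa4l (-0.36 ± 0.13, adjusted p = 0.0549, called at -0.50 without day 2 library 1, adjusted p = 0.00770).

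In skull several of these were lower at day 4. Hsp90aa1 had 371, 393 and 406 CPM at day 2, 223, 216 and 204 CPM at day 4, and 341, 424 and 362 CPM in controls. All day 4 libraries were below all others. It fell by 0.81 on the log2 scale at day 4 (SE 0.09, adjusted p = 0.00702) and by 1.01 against control library 2 alone (adjusted p = 0.00649), with adjusted p = 0.0542 without control library 3 (-0.84). Hspa8 had 165, 192 and 195 CPM at day 4 against 273, 249 and 255 CPM in controls (-0.49 ± 0.09, adjusted p = 0.0170), a call lost against control library 2 alone at a similar size (-0.46, adjusted p = 0.0944) and without day 4 library 3 or control library 3 (-0.53 and -0.50, adjusted p = 0.0581 and 0.0681). Hspa4l, an HSP110, was lower at both days (-0.45 ± 0.14, adjusted p = 0.0318, and -0.64 ± 0.14, adjusted p = 0.0247), and was called against control library 2 alone too (-0.65 and -0.86). Its call at day 2 was lost without day 2 library 1 or 2 or control library 2 or 3 (adjusted p from 0.0662 to 0.106), and at day 4 without day 4 library 2 or 3 or control library 3 (adjusted p from 0.0853 to 0.0941).

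Rises in the skull cytosol at day 2 were smaller. Hsp90ab1 had 1098, 1135 and 1208 CPM at day 2, 771, 816 and 779 CPM at day 4, and 1041, 744 and 905 CPM in controls. The day 2 libraries were above the controls (0.36 ± 0.12, adjusted p = 0.0390), and with control library 2 alone the change was 0.63 (adjusted p = 0.0176). Leaving out any 1 day 2 library, day 4 library 3 or control library 2 or 3 cost the call of Hsp90ab1 (0.25 to 0.39, adjusted p from 0.0556 to 0.119). Hspa14 and Dnajc2, the HSP70 and the J-domain protein of the ribosome-associated complex that meets nascent chains, rose by 0.45 ± 0.09 (adjusted p = 0.00561) and 0.57 ± 0.13 (adjusted p = 0.00855). Dnajc21, a cofactor of ribosome assembly, rose by 0.30 ± 0.09 (adjusted p = 0.0237), and Hspa4 by 0.34 ± 0.10 (adjusted p = 0.0233). All 4 were lower again at day 4 than at day 2, by -0.42 to -0.59, and none of the 4 was called against control library 2 alone (Hspa14 0.30, Dnajc2 0.33, Dnajc21 0.35 and Hspa4 0.15, adjusted p from 0.0992 to 0.375). Hspa4 also lost its call without day 2 library 2 or 3 or control library 1 or 3 (adjusted p from 0.0639 to 0.0858).

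J-domain proteins of vesicles and several other members fell in brain. Of 4 vesicle and endosome members tested in brain, 3 were lower at day 2, where 9.99% of all genes were lower. Dnajc5, the cysteine string protein of synaptic vesicles, had 366, 326 and 348 CPM at day 2, 393, 394 and 393 CPM at day 6, and 400, 456 and 477 CPM in controls. Day 2 lay below day 6 and day 6 below the controls, with a call at day 2 (-0.36 ± 0.09, adjusted p = 0.0112) that was lost without control library 2 or 3 (-0.34 and -0.31, adjusted p = 0.0520 and 0.0585). Dnajc6, auxilin, which strips clathrin from vesicles in neurons (chromosome 4, 101496648 to 101642799), had 317, 246 and 246 CPM at day 2 against 325, 344 and 386 CPM in controls (-0.38 ± 0.11, adjusted p = 0.0206). This call was lost without day 2 library 2 or 3 or control library 2 or 3 (-0.31 to -0.40, adjusted p from 0.0527 to 0.0969).

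Dnajc27, a Rab-like J-domain protein, was called lower in brain at both times (-0.48 ± 0.09, adjusted p = 0.00108, and -0.34 ± 0.09, adjusted p = 0.0209), the later call being lost without day 6 library 2 or any 1 control (adjusted p from 0.0619 to 0.114). Dnajb5 had 120.1, 136 and 143 CPM in brain at day 2, 205, 178 and 187 CPM at day 6, and 182, 179 and 206 CPM in controls. Only day 2 was low (-0.50 ± 0.10, adjusted p = 0.00209), and it was the one member called higher between day 6 and day 2 (0.51 ± 0.10, adjusted p = 0.00525). Dnajb2, a neuronal cochaperone that binds ubiquitin, fell by 0.46 on the log2 scale (adjusted p = 0.00442), Hspa12a, a distant HSP70 relative abundant in brain, by 0.52 (adjusted p = 0.00921), and Dnaja4 by 0.33 (adjusted p = 0.0453), though 44.1% of the exonic bases of Dnaja4 are shared with another gene. The call of Hspa12a was lost without control library 3 (-0.39, adjusted p = 0.0524), and that of Dnaja4 with any 1 of 8 libraries left out (adjusted p from 0.0540 to 0.149). Neuron markers summed to 8656 to 9624 CPM at day 2 and 12291 to 15175 CPM in controls, with 9 of 10 called lower, none at 0, and a median of -0.57. The part of neuron content in these falls was not tested.

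Several of the same genes fell in skull. Dnajc6 had 3.59, 7.73 and 6.84 CPM at day 2, 9.49, 7.42 and 4.91 CPM at day 4, and 31.1, 20.3 and 23.7 CPM in controls. No injured library reached a control, with changes of -2.05 ± 0.32 (adjusted p = 0.00164) and -1.78 ± 0.32 (adjusted p = 0.0156). The call of Dnajc6 at day 4 was lost without day 4 library 2 or 3 or control library 3 (-1.56 to -1.82, adjusted p from 0.0533 to 0.0667). Against control library 2 alone Dnajc6 was called at day 2 (-1.75, adjusted p = 0.0279) and not at day 4 (-1.50, adjusted p = 0.0896). Dnajb5 had 13.2, 16.2 and 13.9 CPM at day 2 and 41.2, 19.5 and 38.7 CPM in controls (-1.20 ± 0.26, adjusted p = 0.00708), a call lost against control library 2 alone (-0.43, adjusted p = 0.169), as was that of Dnajc27 (-0.74 ± 0.16 with all controls, -0.38 with control library 2 alone, adjusted p = 0.202). Dnajb2 kept its call (-0.77 ± 0.11, adjusted p = 0.00106, and -0.64 with control library 2 alone, adjusted p = 0.0224).

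Neuron markers were present in the skull libraries and fell as well, to 130, 278 and 253 CPM at day 2 and 324, 220 and 267 CPM at day 4, against 1177, 833 and 1054 CPM in controls, with 10 of 10 lower at day 2 and 8 of 10 at day 4. Their part in the fall of Dnajc6 was not tested. Dnajc28 had 3.80, 4.00 and 4.01 CPM in skull at day 2 and 9.21, 6.01 and 8.33 CPM in controls (-0.99 ± 0.20, adjusted p = 0.00500; -0.61, adjusted p = 0.150, against control library 2 alone). Dnajb4, a heat-inducible J-domain protein, was lower at both days in skull, with 66.4 ± 2.88 CPM at day 2 against 91.5 ± 14.7 CPM (-0.46 ± 0.12, adjusted p = 0.0173), and both calls were lost against control library 2 alone (-0.25, adjusted p = 0.275, at day 2, and -0.43, adjusted p = 0.130, at day 4). The day 2 call was also lost without day 2 library 2 (-0.42, adjusted p = 0.0585).

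The transcription factors themselves hardly moved. Hsf1, the main switch of the heat shock response, had 32.9, 35.8 and 33.4 CPM in brain at day 2 against 37.4, 37.9 and 36.3 CPM in controls (-0.13 ± 0.10, adjusted p = 0.384). In skull it had 39.9, 35.8 and 32.6 CPM at day 2 against 43.1, 43.7 and 43.1 CPM in controls, without overlap, and was called lower (-0.26 ± 0.09, adjusted p = 0.0395), though 11 of 17 other settings did not call it. Hsf2 was not called against control in either tissue (adjusted p from 0.0986 to 0.878). Of the 6 BAG genes, Bag3 in brain at day 2 was the one call against control. Hspa12b, an endothelial HSP70 relative, rose in brain at day 2 (14.3 ± 2.73 CPM against 8.53 ± 1.13 CPM, 0.74 ± 0.22, adjusted p = 0.0249; lost without day 2 library 2 or 3 or control library 1 or 3, adjusted p from 0.0607 to 0.0940) and fell in skull (-0.33 ± 0.11, adjusted p = 0.0455; -0.55, adjusted p = 0.0212, against control library 2 alone). Beside it, the endothelial markers summed to the values given above in brain and to 604 to 716 CPM in skull at day 2 against 627 to 807 CPM in controls, and their part was not tested. Of the 6 J-domain proteins of the ER membrane, none was called in brain, and in skull at day 2 Dnajc25 was higher (43.8 ± 6.44 CPM against 26.3 ± 4.95 CPM, 0.74 ± 0.16, adjusted p = 0.00705) and Dnajb14 lower (-0.22 ± 0.07, adjusted p = 0.0345). Against control library 2 alone Dnajc25 was still called (1.08, adjusted p = 0.00983) and Dnajb14 was not (-0.20, adjusted p = 0.269). Dnajb13, a protein of motile cilia and sperm, had the largest change of those tested at day 6 in brain, 1.84, with 3.02 CPM in library 2 against 0.72 and 0.97 CPM in the others, and was not called.

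The day 2 responses of the tissues were compared directly, as the change in brain minus the change in skull over the 12 libraries of day 2 and control. Of 75 members tested, 15 differed, 11 with a higher change in brain and 4 with a lower one, against 17.6% of 18863 genes, with 14% higher and 3.6% lower. With RLE or upper-quartile scaling the split was 11 higher and 7 lower. The test was against 0 and the values are not shifted, while the median over all genes was 0.20 and the members' median was -0.0024. With RLE and upper-quartile scaling the median over all genes was 0.13 and 0.16. The small heat shock proteins led, with 4 of 7 called: Hspb6 (3.54 ± 0.47, adjusted p = 5.91e-04), Hspb1 (3.45 ± 0.47, adjusted p = 6.51e-04), Hspb3 (2.86 ± 0.73, adjusted p = 0.0204) and Hspb8 (2.24 ± 0.43, adjusted p = 0.00586). Bag3 differed by 1.35 ± 0.28 (adjusted p = 0.00802), and Hspa1b by 2.67 ± 0.80 (adjusted p = 0.0435).

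On the other side, Hsp90b1 rose less in brain than in skull (-0.82 ± 0.15, adjusted p = 0.00384), as did Hspa9 (-0.49 ± 0.11, adjusted p = 0.0108) and Hspa13 (-0.44 ± 0.13, adjusted p = 0.0378), while for Hspa5 and Hspd1 a difference was not shown (-0.27 ± 0.13, adjusted p = 0.159, and -0.31 ± 0.12, adjusted p = 0.0895). Dnajb6, a J-domain protein that blocks aggregation, also differed (-0.51 ± 0.14, adjusted p = 0.0268). It had 71.1, 68.2 and 73.4 CPM in skull at day 2 against 57.1, 58.3 and 53.5 CPM in controls, without overlap (0.33 ± 0.07, adjusted p = 0.00654; 0.28, adjusted p = 0.123, against control library 2 alone), and 122, 99.6 and 103 CPM in brain at day 2 against 113, 131 and 137 CPM in controls, with overlap and no call. With control library 2 as the lone skull control, fewer members and also fewer of all genes were called. Hspb6, Hspb1, Hspb8, Hsp90b1, Dnajc6, Hspa12b and Dnajc5b were still called. Hspa1b was not, at 0.35 (adjusted p = 0.593), nor was Bag3, at 0.98 (adjusted p = 0.0646), nor Hspb3, at 2.59 (adjusted p = 0.0918). Without skull day 2 library 1, 9 members were called, against 12.8% of all genes. Hspa1b lost its call with any 1 of the 12 libraries but skull control library 2 left out (2.11 to 2.89, adjusted p from 0.0635 to 0.0999), Hspa13 with any 1 of 9 of them left out (adjusted p from 0.0532 to 0.107), Dnajb6 with any 1 of 7 left out (adjusted p from 0.0570 to 0.0767) and Hspb3 without skull day 2 library 1 or 2 (2.57 and 2.55, adjusted p = 0.0592 and 0.0577).

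**Figure D5:**
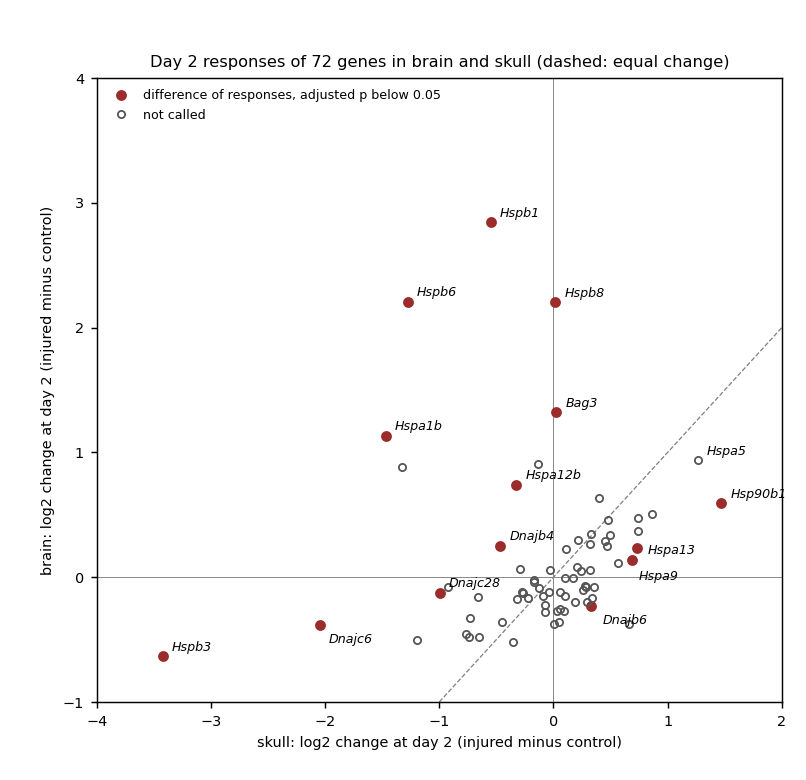
Log2 change at day 2 against control in brain (vertical axis) and in skull (horizontal axis) for the 72 members tested in both, with the 14 members whose responses differed filled in red and the line of equal change dashed. Hspb1, Hspb6, Hspb8 and Bag3 lie high above the line, with brain changes of 2.85, 2.21, 2.20 and 1.32, and Hsp90b1 lies below it at 0.59 in brain and 1.47 in skull.

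The control tissues differed in 59 of 75 members, 35 higher in brain and 24 lower, against 70.9% of all 18173 genes, with 34.5% higher and 36.4% lower. Their libraries did not overlap for 59 members, against 76.7% of all genes. Per kilobase of exon, Hsp90ab1 was the most abundant member in both, at 558 CPM per kb in brain and 309 in skull. Hspa5 ranked second in skull at 162 CPM per kb and was at 62.8 in brain, where Hsp90aa1 ranked second at 248. At the level of CPM in the fit of the 6 controls, Hspa5 averaged 265 ± 3.64 in brain and 685 ± 12.5 in skull (-1.37 ± 0.08, adjusted p = 1.10e-05), and 6 of the 8 ER lumen members were lower in brain and none higher.

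The largest differences toward brain were those of Dnajc6, at 355 ± 30.6 CPM in brain and 25.9 ± 6.05 CPM in skull (3.78 ± 0.19, adjusted p = 5.29e-06), followed by Hspa12a (3.07), Dnajc27 (2.49), Dnajb5 (2.47), Bag4 (2.13) and Hspa4l (2.09). Of 7 small heat shock proteins tested, 6 were lower in brain, where 36.4% of all genes were lower. Hspb7 averaged 0.35 ± 0.35 CPM in brain and 35.7 ± 15.3 CPM in skull (-6.64 ± 0.68, adjusted p = 2.41e-04), and Hspb1 averaged 1.29 ± 0.44 CPM in brain and 18.0 ± 3.29 CPM in skull (-3.80 ± 0.30, adjusted p = 3.30e-05). In brain at day 2 Hspb1 was at 9.24 ± 3.85 CPM, on a scale set within brain. Skull values of Hspb1, Hspb6 and Hspb7 come from libraries with 992 to 5094 CPM of muscle markers, against 12.2 to 22.7 CPM in brain.

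Partner genes outside the 78 were read from 5 lists. Of 24 other ER chaperones and unfolded protein response genes, 14 rose and 0 fell by edgeR in brain at day 2 (median 0.46), 8 rose at day 6 (0.22), 16 rose and 1 fell in skull at day 2 (0.49), and 7 rose and 1 fell at day 4 (0.22). Of all genes, 14.7%, 7.93%, 17.8% and 5.83% were called higher in these comparisons, in the same order. The protein disulfide isomerase Pdia4 rose by 1.30 ± 0.11 in brain (adjusted p = 2.79e-06) and 1.41 ± 0.12 in skull (adjusted p = 7.85e-05) at day 2. Ddit3, the death-linked factor CHOP of the same response, was lower at day 4 in skull (-0.57 ± 0.12, adjusted p = 0.0213).

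Of 14 genes of the cytosolic chaperonin TRiC and prefoldin, which fold actin and tubulin, 11 rose in skull at day 2 with a median of 0.57, and 11 were lower at day 4 than at day 2. Of all genes, 17.8% rose in the first of these comparisons and 11.1% were lower in the second. Cct6a changed by 0.74 ± 0.08 (adjusted p = 2.49e-04). In brain at day 2, 4 rose and 1 fell (median 0.12), where 14.7% of all genes rose and 9.99% fell. The day 2 response differed between the tissues for 6 of the 14, all with the lower change in brain, against 3.6% of all genes. Of 20 HSP90 and HSP70 partners, 2 rose and 3 fell in brain at day 2, where 24.7% of all genes were called. In skull at day 2, 5 rose and 1 fell, where 34.4% of all genes were called. Stip1, which bridges HSP70 and HSP90, fell by 0.30 in brain at day 2 (SE 0.09, adjusted p = 0.0239) and by 0.49 in skull at day 4 (SE 0.07, adjusted p = 0.00881). Of the 14 other mitochondrial chaperones and proteases, none was called by edgeR in brain at day 2, and 4 rose in skull, beside the same shares of all genes.

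Of other genes known as targets or regulators of heat shock factor, 1 of 12 was higher in brain at day 2, where 24.7% of all genes were called, and 3 of 11 were higher and 1 lower in skull, where 34.4% of all genes were called. The call in brain was Serpinh1, the collagen chaperone HSP47 of the ER, which rose by 1.87 ± 0.41 at day 2 (adjusted p = 0.0125) and 2.01 ± 0.41 at day 6 (adjusted p = 0.0189). Cryab, the small heat shock protein alpha-B crystallin, differed between the responses of the tissues by 1.03 ± 0.32 (adjusted p = 0.0495).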

How the data were processed

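RNA was extracted with TRIzol, selected for poly(A) and made into paired-end libraries with NEBNext reagents, per the labels' protocols. Reads were aligned with HISAT2 2.1.0 and the genome build was mm10, per the submitters' processing notes. Which program counted the reads, on which annotation and with which strand option, is not given in the sources used here. Read counts per gene name were deposited by the authors, not normalized, in 1 table of 26783 lines with all 18 libraries. Identical copies of lines under 49 names were reduced to 1 line each, which removed 865 lines and left 25918 names.

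Each tissue was fitted over its 9 libraries with edgeR 4.0.16 in R 4.3.3 (filterByExpr, TMM, robust quasi-likelihood test, Benjamini-Hochberg adjustment over all genes tested). The difference of day 2 responses was an interaction term over 12 libraries, and the control tissues were fitted over 6. The code was tested on simulated data. Alternatives were DESeq2 1.42.0, limma voom 3.58.1, RLE and upper-quartile scaling, no filter, a filter of 1 CPM in 3 libraries, a replicate block, leaving out each library, and control library 2 as the lone skull control. Correlations of same-numbered libraries, taken on deviations from the mean of each group, ran from -0.464 to 0.233. Pairing by replicate number was not shown, so no block was used in the main fit.

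Members and lists were chosen with earlier results of these data known. The text names 20 members in any case and, per comparison, up to 8 rises and 8 falls that were the largest among called members whose higher group averaged 1 CPM or more. For each list of partner genes up to 4 called genes with the smallest adjusted p could be named. Hspa14, Dnajb7, Dnajb9, Dnajb14, Dnaja3, Dnajc1, Dnajc10, Dnajc11, Dnajc15, Dnajc19, Dnajc21, Dnajc30, Hspb9, Hspb11 and Hspa9-ps1 fall outside that rule and were chosen after their values were seen. Positions and exons are from GENCODE M21, and promoters from RefSeq on GRCm38.p6.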

Additional observations from a re-analysis of the deposited data

Results flagged for a closer look

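In 15 members the day 2 response differed between brain and skull by the interaction test in edgeR. All values are the log2 change in brain minus that in skull, beside a median of 0.20 over all genes. Among small heat shock proteins, the difference was 3.54 ± 0.47 for Hspb6 (adjusted p = 5.91e-04), 3.45 ± 0.47 for Hspb1 (6.51e-04), 2.86 ± 0.73 for Hspb3 (0.0204) and 2.24 ± 0.43 for Hspb8 (0.00586). Bag3 differed by 1.35 ± 0.28 (adjusted p = 0.00802).

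In the HSP70 and HSP90 families, it was 2.67 ± 0.80 for Hspa1b (adjusted p = 0.0435), 1.12 ± 0.22 for Hspa12b (0.00583), -0.44 ± 0.13 for Hspa13 (0.0378), -0.49 ± 0.11 for Hspa9 (0.0108) and -0.82 ± 0.15 for Hsp90b1 (0.00384). Among J-domain genes, it was 3.09 ± 0.89 for Dnajc5b (adjusted p = 0.0342, lost with any 1 of 10 libraries left out, adjusted p from 0.0517 to 0.0912), 1.72 ± 0.34 for Dnajc6 (0.00598), 0.93 ± 0.24 for Dnajc28 (0.0230), 0.77 ± 0.17 for Dnajb4 (0.00945) and -0.51 ± 0.14 for Dnajb6 (0.0268).

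With control library 2 as the lone skull control, Hspb6 (3.17), Hspb1 (3.17), Hspb8 (2.06), Hsp90b1 (-0.98), Dnajc6 (1.38), Dnajc5b (3.60) and Hspa12b (1.32) were still called. Hspa1b (0.35), Bag3 (0.98), Hspb3 (2.59), Dnajc28 (0.51), Dnajb4 (0.53), Dnajb6 (-0.49), Hspa9 (-0.46) and Hspa13 (-0.46) were not. Hsp90ab1 was called there alone (-0.68). The muscle markers that differ between the skull control libraries were at 992 CPM in control library 2, against 5094 and 3487 CPM in the others, and their part in these differences was not tested.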

How the results depend on the processing

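Counts of called members are given in the order brain day 2, brain day 6, brain day 6 against day 2, skull day 2, skull day 4, skull day 4 against day 2, the difference of responses and the controls. With all libraries they were 22, 4, 14, 32, 12, 24, 15 and 59. DESeq2 called 10 in brain at day 6 and 20 in skull at day 4, against 13.3% and 16.3% of all genes. With control library 2 as the lone skull control, a setting chosen after seeing the data, 14 were called in skull at day 2, 5 at day 4 and 8 for the difference of responses. In that setting Dnajb1 was 0.44 higher in brain than in skull controls on the log2 scale, with adjusted p = 0.0365, against -0.33 with all controls, which was not called; the setting removes the 2 skull controls with the highest Dnajb1. Leaving out 1 library at a time gave 13 to 23, 0 to 10, 9 to 14, 20 to 36, 0 to 17, 18 to 32, 9 to 18 and 49 to 58. The share of all genes called moved as well, such as from 10.6% to 0.0561% in skull at day 4 without control library 3. The replicate block gave 23, 5, 15, 23, 7, 21, 10 and 53. Of all genes it called 25.4%, 11.3%, 12.8%, 29.1%, 4.38%, 16.5%, 16.0% and 66.6%. Over the values of single members under an alternative, 3075 kept their direction and their side of the threshold, 273 lost the call and 66 gained it. Another 56 changed sign, 55 of them called in neither setting, such as Hspa1a and Hspa1b in skull at day 2. The cause of each loss was not tested. Upper-quartile scaling moved the median of all genes between controls to -0.14. At this depth 6 members in brain and 3 in skull had too few reads to be tested.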
